A study of Mus musculus with 6 samples.

Results

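The genes described here encode the coat and neck proteins of caveolae: the caveolins Cav1, Cav2 and Cav3, the cavins Cavin1 to Cavin4, and the accessory proteins Ehd2, Pacsin2 and Pacsin3. They were found through the array's platform annotation, by keeping each probe set (a group of short probes for 1 transcript) that it assigns to exactly 1 symbol, where that symbol is one of these 10 genes. This gave 20 of the 45101 probe sets and 9 of the 10 genes, out of 18193 genes with such a probe set. No probe set was named Pacsin2, so Pacsin2 was not analysed here. The arrays held RNA from heart tissue of male mice aged 5 to 6 months and fasted for 6 hours, 3 labelled wild type and 3 labelled Cav1 knockout, with 1 Affymetrix expression array each. The labels name no strain, no deleted part of Cav1 and no tissue restriction of the deletion, and they do not state that each sample came from a separate animal. The p-values therefore measure the spread between these samples, each called a heart below. The knockout titles carry no replicate number, so the knockout replicates are numbered here in the order of the samples.

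Caveolae are small bulb-like invaginations of the cell surface. Caveolins are inserted in the inner leaflet of the membrane and oligomerise there, and cavins assemble on them from the cytosol to form the outer coat. In the heart, caveolin-1 and caveolin-2 are known from endothelial cells, smooth muscle, fibroblasts and fat cells, whereas caveolin-3 and cavin-4 belong to the muscle cells. Without caveolin-1 the non-muscle cells lose their caveolae, and those of heart muscle, built on caveolin-3, persist.

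In the knockout hearts the caveola genes did not move together. Apart from Cav1 itself, 4 genes of the non-muscle or general coat rose: Cav2, Cavin1, Cavin3 and Ehd2. The muscle genes Cav3, Cavin4 and Pacsin3 did not pass the test, and neither did Cavin2. Values are given as quantile normalised intensities (a linear scale of brightness) and, for differences, as log2(intensity + 16), knockout minus wild type, a scale that understates changes of dim probe sets. Tests are limma fits across the 22519 probe sets in the upper 50% by mean, with p adjusted by Benjamini-Hochberg over all of them and a threshold of 0.05. Of the 18 member probe sets that entered the test, 8 rose and 1 fell. Across the array 3.17% of tested probe sets were called, 2.36% higher and 0.813% lower. With the intensities as deposited the array's calls were 577 higher and 58 lower, and centred on the median 585 and 41, against 531 and 183 here; the members gave 8 higher and 1 lower under each. The median log2 difference was 0.13 over the tested member probe sets and -0.0096 over all tested probe sets. Summed intensities as deposited ran from 11736700 to 12397300 per array, and wild type replicate 1 was the dimmest.

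**Figure D1:**
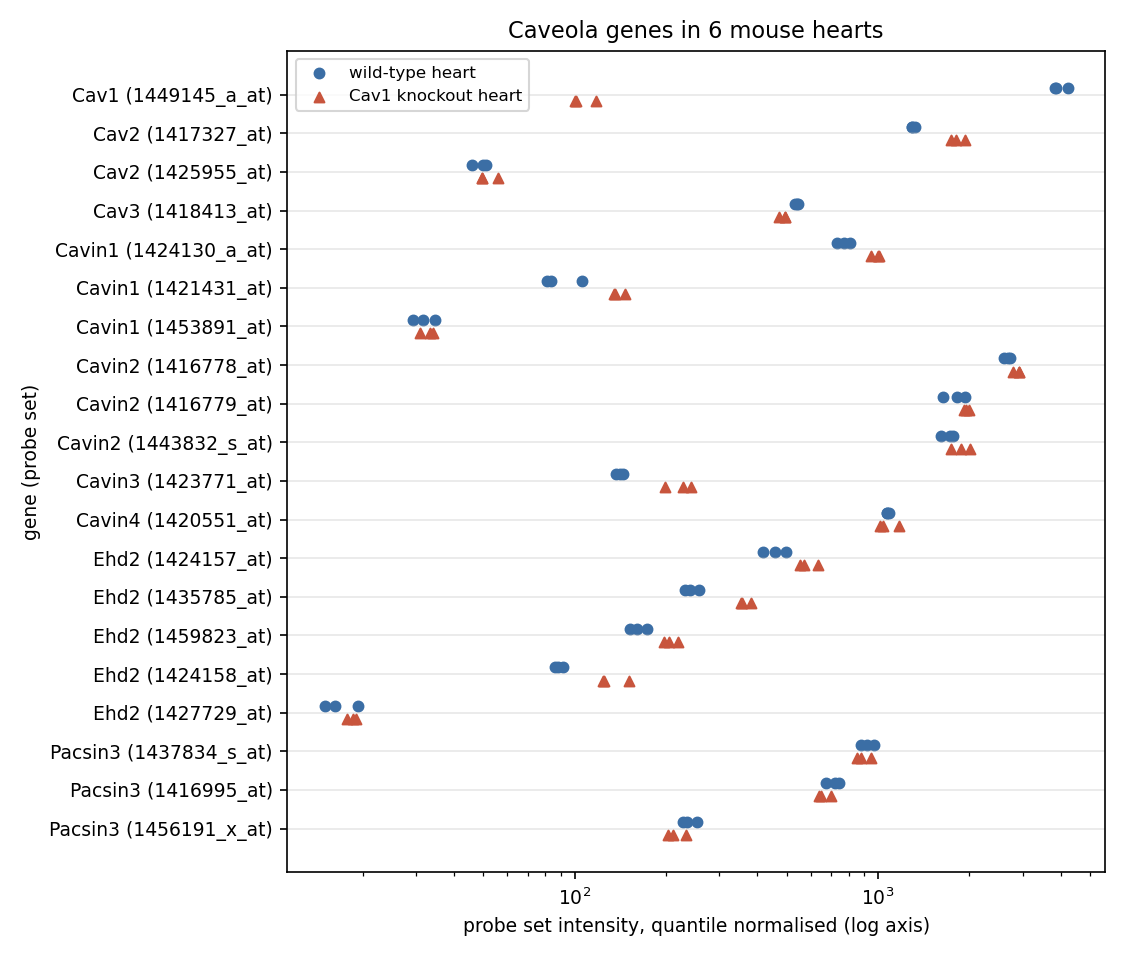
Quantile normalised intensity (log axis) of the 20 caveola probe sets, 1 point per heart: circles for the 3 wild-type and triangles for the 3 Cav1 knockout hearts. For Cav1 the knockout hearts lie between 100.5 and 117.9, far left of the wild-type hearts, and the 4 brighter Ehd2 probe sets all show knockout hearts to the right of wild-type hearts.

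Cav1 was read first, as a check of the labels. Wild-type hearts gave intensities of 3853, 3836 and 4216, knockout hearts 117.9, 101.2 and 100.5. All 3 knockout hearts thus lay far below every wild-type heart, as their label says. The knockout mean was 2.69% of the wild-type mean, and the log2 difference was -5.02 (95% interval -5.18 to -4.87, limma adjusted p = 1.65e-09). Only 1 probe set reports this gene, and its position relative to the deleted part is unknown here. The signal that remained cannot be divided between background and transcript.

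The start regions of 5 members are shown because the data divide them: Cav2, Cavin1 and Ehd2 rose, and Cav3 and Cavin4 did not pass. Each is the RefSeq window (GRCm38.p6) from 250 bases before to 50 bases after the outermost annotated start, read along the gene. Of the 10 genes 9 had a window, and Cavin3 had none. The windows lie at chr6:17280935-17281234 on the plus strand for Cav2, chr11:100970568-100970867 on the minus strand for Cavin1, chr7:15967486-15967785 on the minus strand for Ehd2, chr6:112459255-112459554 on the plus strand for Cav3, and chr4:48663264-48663563 on the plus strand for Cavin4. Capitals mark 3 motifs on either strand. The GC box, a site of the Sp1 family of factors, was searched as GGGCGG. The TATA box, which places the start of transcription in some promoters, was searched as TATAAA. The muscle CAT element, a site of TEAD factors, was searched as GGAATG.
Cav2: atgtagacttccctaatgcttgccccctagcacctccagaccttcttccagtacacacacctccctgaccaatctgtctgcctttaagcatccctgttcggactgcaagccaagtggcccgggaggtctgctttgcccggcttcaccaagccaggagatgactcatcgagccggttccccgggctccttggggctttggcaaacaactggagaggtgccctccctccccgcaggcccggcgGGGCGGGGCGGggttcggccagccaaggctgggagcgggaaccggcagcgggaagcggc
Cavin1: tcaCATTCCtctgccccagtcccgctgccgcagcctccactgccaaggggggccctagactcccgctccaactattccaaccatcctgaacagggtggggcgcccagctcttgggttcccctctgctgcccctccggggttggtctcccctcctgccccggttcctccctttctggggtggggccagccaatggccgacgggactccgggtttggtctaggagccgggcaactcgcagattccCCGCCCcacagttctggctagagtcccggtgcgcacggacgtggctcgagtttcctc
Ehd2: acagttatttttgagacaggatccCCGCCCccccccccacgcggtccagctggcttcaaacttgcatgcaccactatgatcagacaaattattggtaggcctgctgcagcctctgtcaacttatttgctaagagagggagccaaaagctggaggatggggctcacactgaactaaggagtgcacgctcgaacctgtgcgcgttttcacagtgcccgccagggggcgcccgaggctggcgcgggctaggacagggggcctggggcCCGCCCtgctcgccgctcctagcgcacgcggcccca
Cav3: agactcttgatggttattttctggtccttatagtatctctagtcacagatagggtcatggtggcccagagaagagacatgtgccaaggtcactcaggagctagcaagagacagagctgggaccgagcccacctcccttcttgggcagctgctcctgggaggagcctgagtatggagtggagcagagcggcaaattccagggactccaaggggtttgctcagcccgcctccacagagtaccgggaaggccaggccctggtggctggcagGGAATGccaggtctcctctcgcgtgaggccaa
Cavin4: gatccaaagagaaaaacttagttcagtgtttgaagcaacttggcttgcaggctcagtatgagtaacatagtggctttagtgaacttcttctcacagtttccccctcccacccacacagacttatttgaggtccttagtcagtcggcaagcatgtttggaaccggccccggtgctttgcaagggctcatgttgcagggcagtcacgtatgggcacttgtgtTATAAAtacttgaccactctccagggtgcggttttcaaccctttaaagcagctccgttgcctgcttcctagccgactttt
The 3 windows of the genes that rose hold GC boxes: 2 overlapping ones in Cav2 at the start, 1 in Cavin1 and 2 in Ehd2. The second one in Cav2 runs across the start. The Cav3 and Cavin4 windows hold none. A GC box was found in 35.7% of all 32851 windows, so its presence is common. Cavin4 carries a TATA box that begins 30 bases upstream of the start, a motif present in 13.6% of windows, and Cav3 carries a muscle CAT element 18 bases downstream, present in 14.7%. Cavin1 has a muscle CAT element too, at its far end. The windows of Cav2, Cavin1 and Ehd2 had 64.3%, 66.7% and 62% G and C, those of Cav3 and Cavin4 58% and 48.7%, and the median window 52.7%. The matching is not exclusive to the genes that rose: Pacsin3, which did not pass, had 69.7% G and C and 2 GC boxes. No CArG box and no MEF2 site, searched by name on both strands, was found in any of the 9 windows, against 1.63% and 3.19% of all windows. These are matches of letters, with no evidence of binding.

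Cav2 encodes caveolin-2, which needs caveolin-1 to leave the Golgi and reach caveolae. At its bright probe set the wild-type hearts gave 1323, 1292 and 1291, and the knockouts 1941, 1813 and 1744. The groups did not overlap, and the wild-type hearts were nearly alike while the knockout hearts spread more. The mean ratio was 1.41, and the log2 difference was 0.49 (SE 0.047, limma adjusted p = 0.00146). Another, dim probe set of Cav2, at 50.9, 45.8 and 49.9 against 55.7, 49.5 and 49.5, overlapped between groups and did not pass, with a 95% interval of -0.10 to 0.22 for the log2 difference. The 2 genes are neighbours on chromosome 6 in RefSeq, so the genotype and sequence carried along with the deletion cannot be told apart for Cav2.

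Cavin1, the cavin that every caveola needs, rose at both of its tested probe sets. The brighter one gave 806, 729.6 and 775 in wild-type hearts and 1002, 949 and 1004 in knockout hearts. The lowest knockout heart was above the highest wild-type heart. The log2 difference was 0.35 (SE 0.051, limma adjusted p = 0.00948), a mean ratio of 1.28. The dimmer one gave 83.5, 105.8 and 80.8 against 136.2, 134.8 and 146.9, a log2 difference of 0.56 (SE 0.094, limma adjusted p = 0.0165), and 1 wild-type heart, replicate 2, stood above the other wild-type hearts. The remaining probe set, at 29.4 to 34.7 in all hearts, was too dim to enter the test. Without knockout replicate 1 the brighter probe set had a limma adjusted p of 0.0597. The dimmer one lost its call without wild type replicate 1 (limma adjusted p = 0.0505) or 3 (0.0697), and without knockout replicate 1 (0.0818), 2 (0.0638) or 3 (0.0538).

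Cavin3, a cavin that binds protein kinase C delta, had the largest difference among the member probe sets that rose. Its only probe set read 144.7, 140.7 and 137.3 for wild type and 241.8, 227.6 and 198.1 for knockout. The wild-type hearts lay within a narrow band, and the knockout hearts all lay above it, replicate 3 the least. The log2 difference was 0.60 (SE 0.077, limma adjusted p = 0.00521), a mean ratio of 1.58.

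Cavin2, which shapes caveolae and is abundant in endothelium, moved less. Its brightest probe set read 2727, 2685 and 2609 for wild type and 2918, 2792 and 2923 for knockout, with no overlap. The log2 difference of 0.11 (95% interval 0.023 to 0.19) had a limma adjusted p of 0.159. The other Cavin2 probe sets overlapped between groups, with log2 differences of 0.13 and 0.14 and limma adjusted p of 0.259 and 0.239. All 3 were positive, and the upper bounds of their intervals, 0.19, 0.26 and 0.27, lie below the differences measured for Cav2 and Cavin3. Non-overlap alone is common here: in 26.3% of all tested probe sets the groups lay apart, against 11 of the 18 tested member probe sets.

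Ehd2 encodes an ATPase that forms a ring around the neck and holds caveolae at the surface. It rose at 4 of its 5 probe sets, and the remaining one, at 15.0 to 19.2 in all hearts, was too dim to be tested. The brightest gave 497.3, 416.8 and 456.5 for wild type and 633, 553 and 571 for knockout. The clearest, by p, gave 230.3, 239.8 and 256.3 against 381.3, 352.2 and 356.7. Both show knockout hearts above all wild-type hearts. The log2 differences were 0.35 (SE 0.075, limma adjusted p = 0.0446) and 0.56 (SE 0.061, limma adjusted p = 0.00286), and the other 2 called probe sets gave 0.33 and 0.51 (limma adjusted p = 0.0425 and 0.0138). The rise to 1.28 times or 1.51 times the wild-type level thus depended on the probe set read.

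The calls of the weaker Ehd2 probe sets depended on the hearts and on the settings. The brightest lost its call without wild type replicate 2 (limma adjusted p = 0.0751) or 3 (0.128) and without knockout replicate 1 (0.173), 2 (0.0957) or 3 (0.0838). The probe set with a difference of 0.33 lost it without the same hearts (limma adjusted p = 0.0750, 0.126, 0.182, 0.135 and 0.0679 in that order). Both also lost it among the upper 75% of probe sets (0.0546 and 0.0554), without a filter (0.0640 and 0.0647) and with eBayes without a trend (0.0797 and 0.0565), and passed limma under 7 of 15 alternatives. The one with 0.51 lost it without wild type replicate 3 (0.0629). The clearest Ehd2 probe set, Cav1, the bright probe set of Cav2 and Cavin3 passed under all 15 alternatives fitted.

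**Figure D2:**
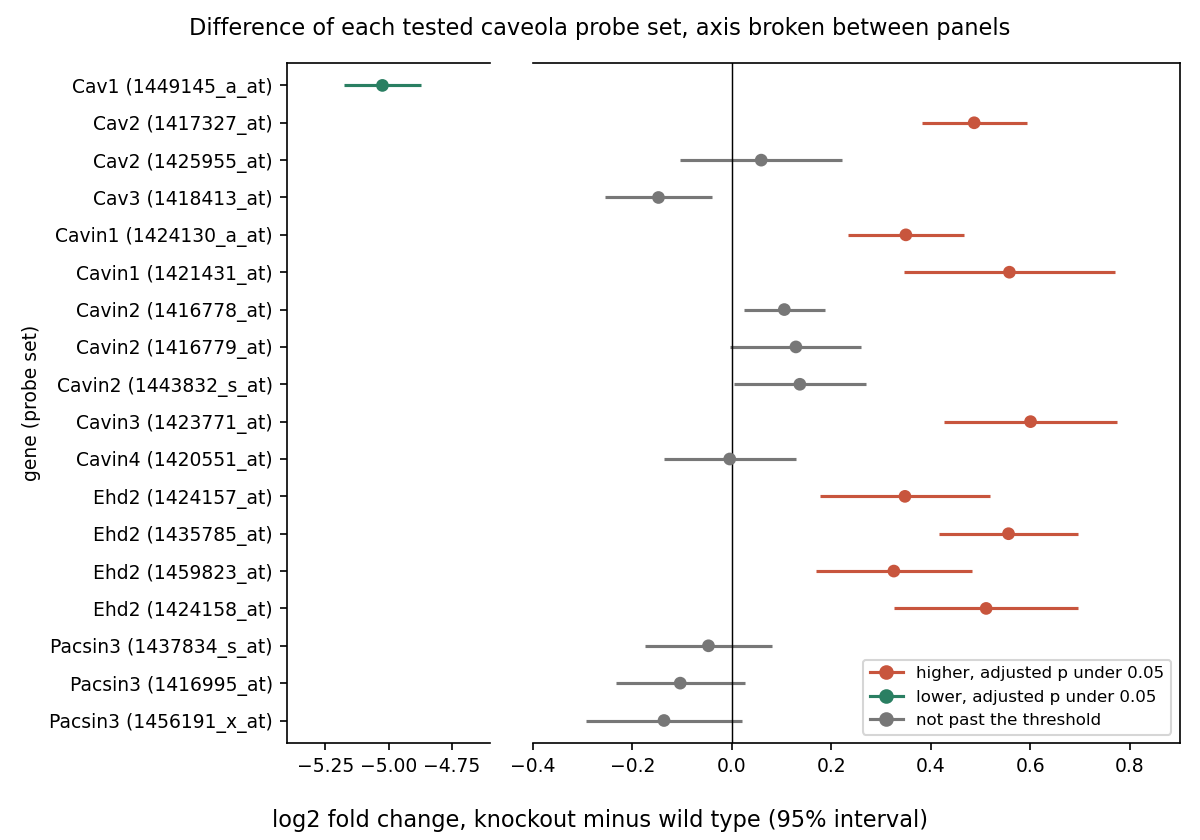
Log2 difference, knockout minus wild type, with its 95% interval for the 18 tested caveola probe sets; the axis is broken between the Cav1 panel and the rest, and colour shows the limma call. Cav2 at 0.49, Cavin1, Cavin3 at 0.60 and 4 Ehd2 probe sets lie to the right of 0, while Cav3 at -0.15 and the 3 Pacsin3 probe sets lie to its left without passing. The 3 Cavin2 probe sets and the dim Cav2 probe set lie to the right of 0, also without passing.

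Cav3 encodes the muscle caveolin, on which caveolae of heart and skeletal muscle are built. Wild-type hearts read 544, 540 and 534.2 for it, and knockout hearts 470.7, 492.4 and 493.7. The groups did not overlap, with the knockout hearts at the lower side. The log2 difference was -0.15 (95% interval -0.25 to -0.041), and it missed the threshold with a limma adjusted p of 0.136. The knockout mean was 90.0% of the wild-type mean. Nowhere among the 15 alternatives did Cav3 pass, and its difference stayed between -0.16 and -0.064.

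Cavin4, the muscle cavin, was the member with the smallest difference. It stood at 1069, 1070.2 and 1086 in wild-type hearts and at 1175, 1013 and 1035 in knockout hearts. The knockout hearts lay on both sides of the tight wild-type band. The log2 difference was -0.0043 (95% interval -0.14 to 0.13, limma adjusted p = 0.975), and its sign turned with the intensities as deposited or centred on the median. An increase as large as those of Cav2 or Cavin3 lies outside this interval. Pacsin3 encodes the muscle-enriched member of the PACSIN proteins, which bend membrane at the neck. Its 3 probe sets overlapped between groups, with log2 differences of -0.047, -0.10 and -0.14 and limma adjusted p of 0.662, 0.340 and 0.304. The sign of the smallest turned positive as deposited or centred on the median.

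The contrast between the groups of coat genes was then read within each heart, as the log2 ratio of 2 probe sets relative to its wild-type mean. The pairs were chosen with their values known. The ratio of Cav2 to Cav3 stood at 0.76, 0.60 and 0.54 in the knockout hearts, whereas the wild-type SD was 0.012. For Cavin1 to Cav3 the knockout hearts gave 0.57, 0.42 and 0.50. Cavin3 to Cavin4 gave 0.59, 0.72 and 0.50. Ehd2 to Pacsin3 gave 0.53, 0.38 and 0.27, the widest spread of these. Cavin1 to Cavin4 gave 0.25, 0.38 and 0.43. The ratio of Cavin1 to Cavin2 lies within the genes of the non-muscle or general coat and gave 0.25, 0.23 and 0.25. The other 5 set genes of the non-muscle or general coat, which are not confined to non-muscle cells, against muscle genes. In each of the 6, all knockout hearts lay above all wild-type hearts. The exact permutation test, two-sided, gave p = 0.1 for each, also when adjusted over the 6 by Benjamini-Hochberg, and 3 against 3 hearts cannot go lower. Because the pairs were chosen with their values known, this p adds nothing to the values. Cavin2 was not set against a muscle gene.

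Markers of several cell types moved with the coat genes. In whole tissue, more cells of a type and more RNA per cell cannot be told apart. Of 12 endothelial markers 6 rose and none passed as lower: Pecam1 by 0.71 (limma adjusted p = 9.50e-04), Tek by 0.49 (limma adjusted p = 0.00430), Tie1 by 0.42 (limma adjusted p = 0.00554), and Cldn5, Erg and Esam. Their summed intensity ran from 5861 to 6143 in wild-type hearts and from 7053 to 7986 in knockout hearts. The Pecam1 difference of 0.71 stands beside 0.49 for Cav2 and 0.60 for Cavin3, while Kdr and Cdh5, also defining endothelial genes, had log2 differences of -0.039 and 0.13 and did not pass, and the sign of Kdr turned as deposited or centred on the median. Egfl7, Emcn and Eng, also uncalled, stood at 0.24, 0.18 and 0.15 (limma adjusted p = 0.128, 0.223 and 0.226). Robo4, another of these markers, went the other way at -0.25 and did not pass (limma adjusted p = 0.120). Its knockout hearts all lay below its wild-type hearts. Of the 12 endothelial markers 10 had an unadjusted limma p under 0.05, Robo4 among them, and the median log2 difference was 0.25. Among the knockout hearts, Cav2, Cavin3 and the endothelial sum were highest in replicate 1 and lowest in replicate 3. Single markers did not all share this order: Erg ran the other way, at 251.5, 269.1 and 278.3 in knockout replicates 1 to 3, and Tek was lowest in replicate 2. Cavin1 did not share it either, with replicates 1 and 3 level. The brightest Ehd2 probe set, at 633, 553 and 571, and the clearest, at 381.3, 352.2 and 356.7, were lowest in replicate 2. The Ehd2 probe set with a difference of 0.51 was highest in replicate 2, and the one with 0.33 shared the order. The calls of Pecam1, Tek and Tie1 held under all 15 alternatives. Those of Cldn5, Erg and Esam held under 9, 9 and 5 of 15 and were lost without some single hearts (limma adjusted p up to 0.105, 0.132 and 0.175). The part of endothelial content in the rise of the coat genes was not tested.

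Of 14 cardiomyocyte markers 0 passed limma at their brightest probe set (0 at an unadjusted p under 0.05). Their summed intensity ran from 210694 to 211949 in wild-type and from 210233 to 212564 in knockout hearts. All 14 of these probe sets lay at or above percentile 99 of the array, where quantile normalisation assigns nearly the same few values to each heart, so this sum and these tests carry little information on muscle content. Summed as deposited, before quantile normalisation, they also overlapped, at 210091 to 213137 in wild-type and 209300 to 212849 in knockout hearts. Of the 14 dimmer tested probe sets of the same genes, 10 had a negative log2 difference and 0 were called, with a median of -0.018. The 3 smallest p belonged to dimmer probe sets of Atp2a2, Tnnt2 and Myh6, at -0.31, -0.25 and -0.45 (limma adjusted p = 0.0670, 0.0823 and 0.136), each with the knockout hearts below the wild-type hearts, as for Cav3. Tnnt2 (limma adjusted p = 0.0199) and Myh6 (0.0478) passed without wild type replicate 2, Tnnt2 also with array weights, and Atp2a2 (0.0441) among the upper 25% of probe sets. With the intensities as deposited, Atp2a2, Tnnt2 and Myh6 were smaller, at -0.23, -0.21 and -0.41 (limma adjusted p = 0.148, 0.126 and 0.199). The other dimmer Atp2a2 probe sets stood near 0, at 0.023, -0.0043, 0.033 and -0.024. The part of muscle content in the Cav3 difference was not tested. Of 8 fibroblast markers 3 rose, Col1a1 by 0.51, Col3a1 by 0.65 and Mfap5, and the summed intensity ran from 12445 to 14030 in wild-type and from 14539 to 17495 in knockout hearts. Of 8 tested macrophage markers 3 rose (Ptprc by 0.75, C1qa by 0.31 and Mrc1 by 0.27), with sums of 5126 to 5941 and 6448 to 6679. Of 11 smooth muscle and pericyte markers Higd1b alone rose, by 0.37, with sums of 17492 to 17679 and 18014 to 18362. The sum is weighted to bright genes, and the mean log2 deviation of this list from its wild-type mean overlapped between groups. It stood at -0.053, -0.0059 and 0.059 in wild-type and at 0.036, -0.0034 and 0.059 in knockout hearts, and the median log2 difference was 0.039. Pdgfrb at 0.12 and Tagln at -0.14 did not pass. The parts of these cells in the coat gene differences were not tested. Without some single hearts the calls of Ptprc (limma adjusted p up to 0.0820), C1qa (0.117), Mrc1 (0.144), Higd1b (0.102), Col3a1 (0.0722) and Mfap5 (0.182) were lost. C1qa, Mrc1 and Mfap5 also lost theirs with eBayes without a trend, Mrc1 and Mfap5 without a filter, Mrc1 centred on the median and Mfap5 among the upper 75% of probe sets.

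Fat cells are rich in caveolae, and fat markers differed between hearts of the same group. Of 6 tested adipocyte markers none passed limma (4 at an unadjusted p under 0.05), with a median log2 difference of -1.0. The summed intensity of the 8 measured markers ran from 1876 to 4056 in wild-type and from 1389 to 1825 in knockout hearts. Ucp1 stood at 6.63, 8.37 and 9.68 on the log2 scale in wild-type hearts and at 5.20, 5.20 and 6.93 in knockout hearts, so the groups overlapped. Adipoq and Pck1 also overlapped, with log2 differences of -1.89 and -1.58 (limma adjusted p = 0.109 and 0.0980). Without wild type replicate 1, Ucp1 and Pck1 passed at -3.27 and -2.18 (limma adjusted p = 0.0369 and 0.0106), and without knockout replicate 3 Adipoq passed at -2.51 (0.0224). With array weights all 3 passed, at -3.16, -2.03 and -2.36 (limma adjusted p = 0.0215, 0.0128 and 0.0369). In the wild-type hearts the bright Cav2 probe set read 1323, 1292 and 1291, and Cavin3 read 144.7, 140.7 and 137.3. The part of fat cells in the coat gene differences was not tested. Of the skeletal muscle markers Myh1, Myh2, Myh4 and Tnnt3 were too dim to be tested, and Tnni2 and Mylpf did not pass.

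**Figure D3:**
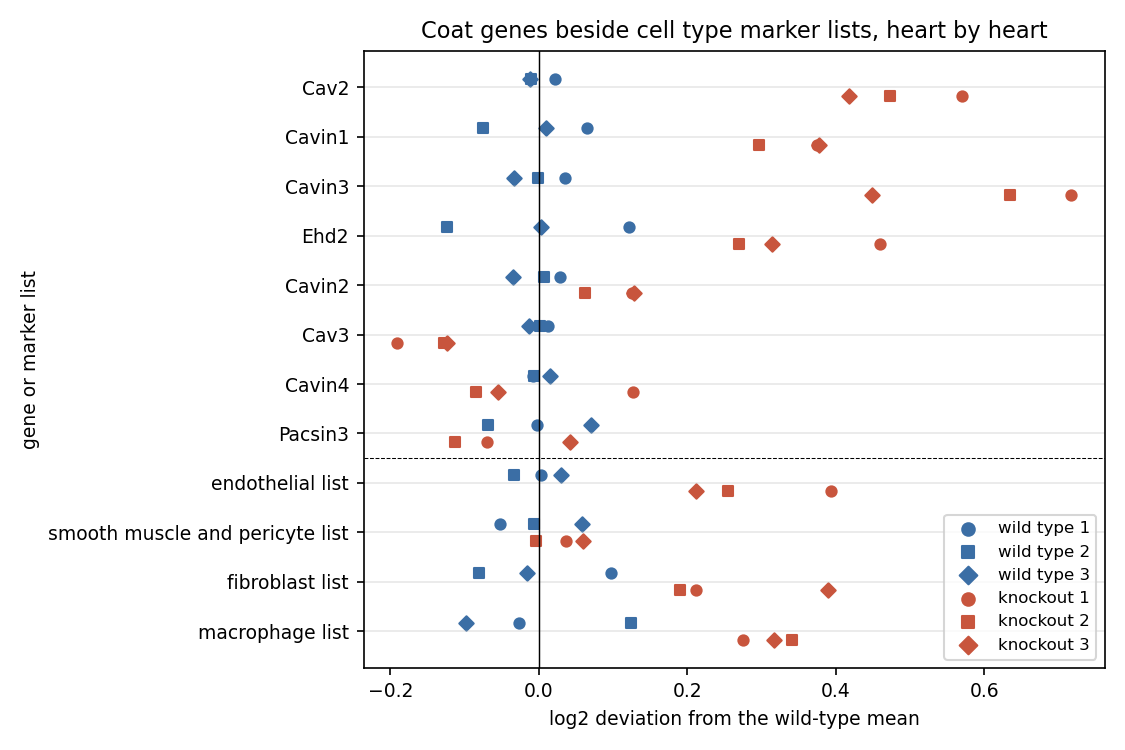
Log2 deviation of each heart from the wild-type mean for 8 coat and neck genes (brightest probe set) and, below the dashed line, for the mean of 4 cell type marker lists; marker shape gives the replicate. Knockout hearts lie to the right for Cav2, Cavin1, Cavin3, Ehd2 and the endothelial, fibroblast and macrophage lists, and to the left for Cav3. For Cavin2, which like Cav3 did not pass, they also lie to the right, at 0.125, 0.063 and 0.128.

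Other genes of the caveola pathway were taken from 4 lists of 35 genes in all. At the brightest probe set, 32 of them were tested, 3 rose (Ehd1, Nos3 and Tek) and 1 fell (Ehd4). Tek and Kdr are also among the endothelial markers above, so their values are counted in both places. Over all 57 tested probe sets 6 rose and 1 fell, and the median log2 difference was 0.0045. Among 8 tested neck and scission genes 1 rose and 1 fell. None of 7 actin and kinase regulators and none of 9 muscle caveolin-3 partners passed, and the medians were 0.052 and -0.069; at an unadjusted limma p under 0.05 they numbered 1 and 3. Dysf, the membrane repair protein dysferlin, stood at 0.17 (limma adjusted p = 0.177), and Popdc1, a cyclic AMP-binding membrane protein, at -0.11 (limma adjusted p = 0.290). Of 8 partners of caveolin-1 in endothelium, Nos3 and Tek rose. Nos3, the endothelial nitric oxide synthase that caveolin-1 binds and restrains, stood at 402.7, 381.6 and 403.8 in wild-type hearts and at 604.4, 536.3 and 557 in knockout hearts. Its log2 difference was 0.50 (SE 0.059, limma adjusted p = 0.00370), close in size to that of Cav2. Plvap, which forms the diaphragm across the neck of endothelial caveolae, overlapped between groups at 203.9, 187.0 and 221.9 against 215.1, 222.3 and 213.3, with a log2 difference of 0.083 (limma adjusted p = 0.521). Ror1, a receptor kinase reported to hold cavin-1 and caveolin-1 together, stood at 0.12 and did not pass.

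The ATPases related to Ehd2 did not move as a family. Ehd1, which acts in endocytic recycling, rose at all 4 of its tested probe sets, by 0.36 to 0.48. Its brightest stood at 600.6, 632.6 and 627 in wild-type hearts and at 861, 923 and 749.9 in knockout hearts, with no overlap and with replicate 3 the lowest of the knockout hearts (0.43, SE 0.073, limma adjusted p = 0.0165). Ehd4 stood at 2182, 2230 and 2408 in wild-type hearts and at 1850.2, 1926 and 2031 in knockout hearts. Its log2 difference of -0.23 (SE 0.051) passed narrowly, with a limma adjusted p of 0.0469. Both tested probe sets of Ehd3 overlapped between groups, at -0.0076 and -0.042, and the sign of the first turned with the intensities as deposited or centred on the median.

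Hearts left out in turn bear on these calls. The brightest Ehd1 probe set lost its call without wild type replicate 1 (limma adjusted p = 0.0587) or 3 (0.0636) and without knockout replicate 1 (0.0927) or 2 (0.0637), with differences of 0.37 to 0.44. The other 3 Ehd1 probe sets lost theirs in each of these 4 cases too, with limma adjusted p up to 0.159. Of them, the dimmest passed under 4 of 14 alternatives, and another under 6 of 15. Ehd4 lost its call whichever heart was left out, except knockout replicate 3 (limma adjusted p = 0.0636, 0.0660 and 0.131 without wild type replicates 1, 2 and 3, and 0.182 and 0.155 without knockout replicates 1 and 2), as deposited (0.121), centred on the median (0.187), among the upper 75% of probe sets (0.0579), without a filter (0.0704) and with eBayes without a trend (0.117). It passed limma under 5 of 15 alternatives. Nos3 and Tek passed under all 15 alternatives.

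**Figure D4:**
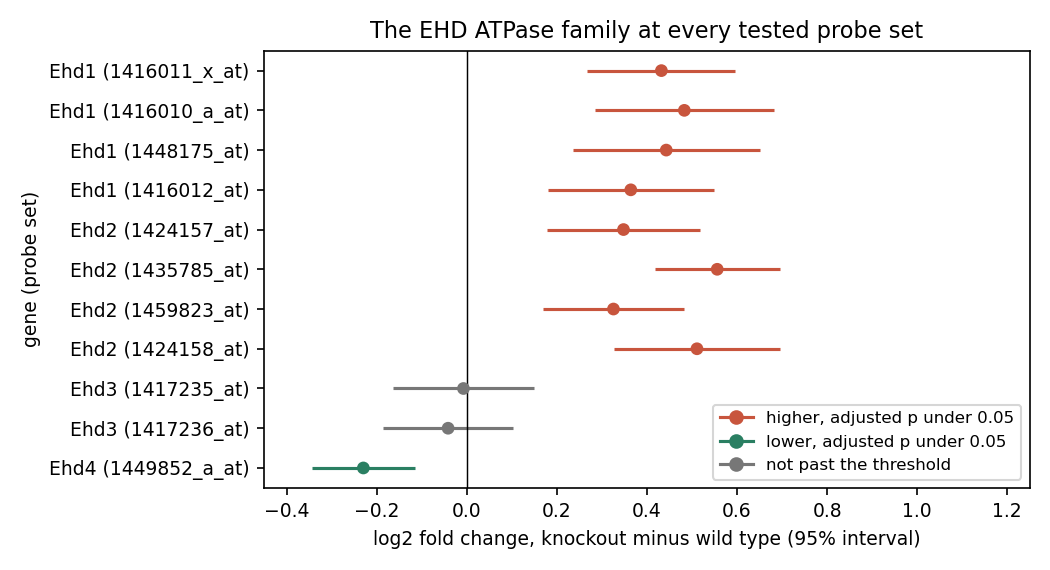
Log2 difference, knockout minus wild type, with its 95% interval at each tested probe set of Ehd1, Ehd2, Ehd3 and Ehd4; colour shows the limma call. The 4 Ehd1 and 4 Ehd2 probe sets lie to the right of 0, Ehd3 lies about 0 and Ehd4 lies to the left at -0.23.

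The pattern over the 6 hearts was compared with that of all other named and tested probe sets by Pearson's r, as a description. The 6 points fall into the 2 groups, so r mostly carries the group difference. The 5 most like the brightest Cavin1 probe set were Ppic at r = 0.997, S100a16 at 0.994, Npdc1 at 0.994, Gata2 at 0.993 and Col1a2 at 0.993. Their log2 differences lay between 0.19 and 0.42. The 5 most like Cav3 were Bri3bp at r = 0.997, Oxld1 at 0.996, and Gtf3c1, Glrx2 and Castor2 at 0.991 each, with log2 differences from -0.32 to -0.17.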

How the data were processed

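Total RNA of 6 hearts was extracted with Trizol and 2 ug of it was labelled, per the labels' protocols. The authors deposited 1 intensity on a linear scale per probe set and array; summarisation, background correction and scaling are not given in the sources used here. For software, the submitters' processing notes list GCOS 1.4 without saying what it did. From the deposited values, 64 control probe sets were dropped, arrays were quantile normalised, 16 was added and log2 taken, and the upper 50% by mean (22519) were tested with limma 3.58.1 in R 4.3.3 (lmFit, eBayes with a trend, no covariate, Benjamini-Hochberg). The test was tried on simulated data with independent noise and planted differences of 1 log2 unit. These are larger than the differences of the called members other than Cav1, so the trial does not bear on calls of their size. The number of arrays, 3 against 3, limits the precision. No pair of arrays held the same values (at most 2252 identical).

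Members, lists and tests were chosen with earlier results of these data known. Named are all members at each probe set, called genes of the other caveola lists with Nos3, Plvap, Ehd4, Ror1, Dysf and Popdc1, the 3 markers per list with the smallest p, and the 5 most like in pattern to Cavin1 and Cav3. Further genes named (Kdr, Cdh5, Robo4, Egfl7, Emcn, Eng, Cldn5, Erg, Esam, Mfap5 and Ehd3) were chosen after their values were seen. Lists use each gene's brightest probe set. The platform annotation gave 34945 probe sets 1 symbol, 932 several and 9160 none; Ptk2, Plin1 and Cfd had no probe set of their own and were not analysed here, and another listed gene is not reported here. Promoter windows are RefSeq's.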

Additional observations from a re-analysis of the deposited data

How the results depend on the processing

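Of the 9 called member probe sets 4 passed under all 15 alternatives, and none of the 9 uncalled ones passed under any. Member calls numbered between 7 and 9 under the other scalings, pseudocounts, filters, array weights and the fit without a trend, and between 5 and 8 with 1 heart left out. Calls over the array numbered 411 without a trend, 1171 with array weights, and 189 to 749 with 1 heart left out. Calls among the other caveola genes numbered 4 without a filter, 4 without a trend, and 2 to 6 with 1 heart left out. No paired analysis was possible because the knockout titles carry no replicate number.

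Some uncalled differences turned sign. Cavin4 stood at 0.028 as deposited, 0.046 centred on the median, and between -0.070 and 0.046 over all alternatives, with 0.0044, 0.036 and 0.019 without wild type replicate 3, knockout replicate 2 and knockout replicate 3 and -0.070 without knockout replicate 1. The brightest Pacsin3 probe set stood at 0.0087 as deposited and 0.027 centred on the median. Ehd3 stood at 0.030 and 0.048 under these 2 scalings and between -0.054 and 0.027 with 1 heart left out. Kdr stood at 0.015 and 0.034 under the same scalings and between -0.12 and 0.012 with 1 heart left out. A dim probe set of Popdc1 stood at 0.0088 centred on the median, and Tnni2 lay between -0.035 and 0.075 with 1 heart left out. The cause was not tested. The exact permutation test cannot go below p = 0.1 with 3 against 3 hearts and says nothing about stability.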
